A study of Saccharomyces cerevisiae with 12 samples.

Results

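The occupancy of the 35S gene by RNA polymerase I (Pol I) in yeast treated with BMH-21 for 16 min was compared with that in yeast treated for 2 min. The comparison uses the 6 BMH-21-treated libraries of 12 in all, 3 at each time, and the 6 vehicle-treated libraries serve as the background of the same time step. The strain was Saccharomyces cerevisiae with an HA- and His-tagged RPA135 subunit of Pol I and a deletion of rpa190 that is covered by RPA190 on a plasmid, and all 12 libraries share it. At an OD600 of 0.3, 50 μM BMH-21 was added to the cultures, or an equal volume of vehicle buffer. The cultures were returned to the incubator for 1 min in the 2-min experiment and for 15 min in the 16-min experiment, and harvest took about 1 min. The times were separate experiments, so a change with time and a change between experiments cannot be told apart within the BMH-21 libraries. The untagged Pol I control of the study is not analysed here.

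Pol I transcribes the 35S precursor, which is cut into the 18S, 5.8S and 25S rRNAs. The external transcribed spacers (ETS1 and ETS2) and the internal ones (ITS1 and ITS2) are removed and degraded, so that RNA from the spacers is short-lived, whereas mature rRNA is abundant and is carried along in the purification. BMH-21 is a planar molecule that intercalates in GC-rich DNA and inhibits Pol I. NET-seq (sequencing of native elongating transcripts) purifies Pol I together with the RNA it is making and maps where that RNA ends, so a read end gives the last base that had been added. The 3′ end of 5.8S is made in several steps in yeast. ITS2 is first cut at the C2 site, and the exosome then trims the 3′-extended precursor down to short forms that keep a few nucleotides of ITS2.

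The values were in RPM, that is read ends at a position scaled to a fixed total of read ends on the 35S gene in each library, and a sum over a region is therefore a share of the 35S signal and not an amount of RNA per cell. The scaling was done library by library, which allows values of both experiments to be set side by side. The gene spans 6858 positions on the minus strand of chromosome XII, from 460712 to 467569 in assembly R64, and positions are counted here from 1 at its first base. ETS1 covers positions 1 to 700, 18S 701 to 2500, ITS1 2501 to 2861, 5.8S 2862 to 3019, ITS2 3020 to 3251, 25S 3252 to 6647 and ETS2 6648 to 6858. The 4 spacers hold 1504 positions. Recovered reads on the gene ranged from 1172046 to 3440024 per library at 2 min and from 1054374 to 5273319 at 16 min. The spacers held 25318 to 104922 of them at 2 min and 9783 to 29596 at 16 min, so the spacer values at 16 min rest on fewer reads. In all 12 libraries 10 positions were listed at 0, and 9 of them were the last and first bases around the 3′ ends of 18S, 5.8S and 25S.

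A few places on the gene are described in more detail below. Their sequences are printed in the sense of the transcript from RefSeq assembly R64. The first is the 3′ end of 5.8S, with the first 10 nt of ITS2 in capitals, where the spacer signal fell steeply. The second is a site in ITS2 138 nt after the last base of 5.8S, with the last nucleotide of the transcript in capitals. Then come a pair of raised 25S positions. The higher of them lies 248 nt before the 3′ end of 25S, at chrXII 461171, and is called the 25S spike here, and the other is position 5094. There the capitals mark the last nucleotide and, further on, bases that equal the start of the fixed part of the ligated linker. The last is the highest position of ITS1 at both times, with its last nucleotide in capitals.
5.8S 3′ end into ITS2, chrXII:464531-464570: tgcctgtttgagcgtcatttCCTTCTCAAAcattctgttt
ITS2 position 3157, chrXII:464398-464428: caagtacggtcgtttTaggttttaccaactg
25S spike, chrXII:461151-461181: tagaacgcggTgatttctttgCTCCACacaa
25S position 5094, chrXII:462456-462486: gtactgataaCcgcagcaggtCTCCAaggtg
ITS1 position 2710, chrXII:464845-464875: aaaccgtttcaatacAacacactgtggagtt

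After 16 min of BMH-21, less of the 35S signal lay in each of the 4 spacers than after 2 min, with no overlap between the libraries. Together they held 3.43%, 1.45% and 2.16% in the 2-min libraries and 0.720%, 0.561% and 0.928% in the 16-min libraries. The 2-min libraries lay farther apart than the 16-min libraries. The means were 2.35% ± 1.00 and 0.736% ± 0.184 (SD, n = 3 each), and the log2 change was -1.61. An exact permutation test (two-sided) gave p = 0.1, which is as low as 3 libraries against 3 can reach. In the shallowest library, replicate 3 at 16 min, the 95% interval of the share was 0.910% to 0.946% (Wilson, counting error only). In the vehicle-treated libraries the share was 5.52% at 2 min and 4.11% at 16 min, a log2 change of -0.43. The difference between these 2 log2 changes was -1.18, and a permutation of time within each treatment gave it p = 0.17 (exact, two-sided, 400 arrangements). The test assumes that time has no effect within either treatment. Since libraries were scaled to their own totals, less spacer signal and more signal elsewhere on the gene cannot be told apart.

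**Figure D1:**
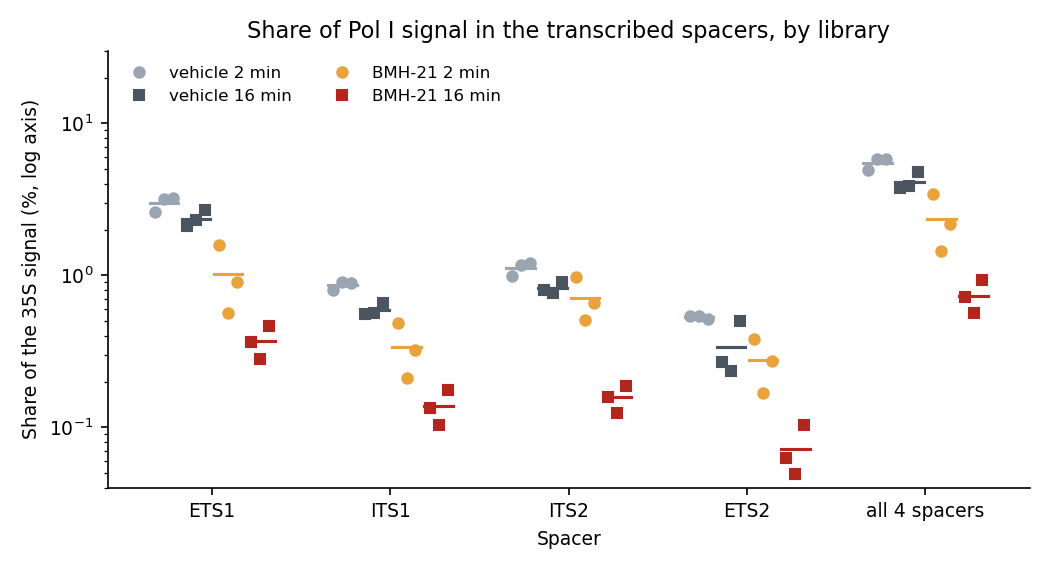
Share of the 35S signal in each spacer and in all 4 together (%, log axis), one point per library, with a short line at the mean of each group of 3. In every spacer the 3 BMH-21 libraries at 16 min sit below the 3 at 2 min, and over all positions the step is deepest in ITS2.

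ITS2, which separates 5.8S from 25S, showed the deepest step when all positions were counted. It held 0.971%, 0.508% and 0.660% of the signal at 2 min and 0.159%, 0.125% and 0.188% at 16 min, a log2 change of -2.15 against -0.44 in vehicle. The difference between these changes had p = 0.1 when time was permuted within treatment (exact, 400 arrangements). ETS2, which lies beyond 25S and holds the Rnt1 cleavage stretch and the terminator, held 0.275% and 0.072% (log2 change -1.93, vehicle -0.75). ETS1, the leader before 18S, held 1.02% and 0.369% (log2 change -1.36, vehicle -0.35). ITS1 held 0.339% and 0.138% (log2 change -1.25, vehicle -0.56). Each of these had p = 0.1 in the exact permutation test, also after Benjamini-Hochberg adjustment over the 7 regions, and no groups overlapped. The same held for 18S, 5.8S and 25S, so neither the p-value nor the lack of overlap sets the spacers apart. With all 7 values at 0.1, the adjustment could not change them. With positions within 30 nt of a mature end left out, the order changed, since ITS2 then had a log2 change of -1.44 and ETS2 one of -1.93.

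The mature rRNA regions moved less. The 18S share was 25.1% at 2 min and 28.8% at 16 min, and that of 25S was 67.4% and 66.4%. The 5.8S share was 5.65%, 4.76% and 5.08% at 2 min and 3.89%, 3.98% and 4.19% at 16 min, a log2 change of -0.36 against -0.02 in vehicle. For the difference from vehicle in 5.8S the permutation of time within treatment gave p = 0.08 (exact, 400 arrangements, unadjusted among 8 such values). Within the rRNA regions, the first 30 nt of each rRNA held more signal at 16 min, with no overlap between the times. Their sums had log2 changes of 0.76 at the 5′ end of 18S, 0.84 at that of 5.8S and 0.48 at that of 25S, against 0.19, 0.05 and -0.14 in vehicle. At 2 min the BMH-21 means of 1593, 3273 and 1573 RPM lay below the vehicle means of 2577, 4600 and 2337 RPM. At 16 min the BMH-21 means were 2701, 5909 and 2206 RPM, against 2932, 4851 and 2175 RPM in vehicle. Each of these rises had p = 0.1 in the exact permutation test, and 0.13 after Benjamini-Hochberg adjustment over 20 spans at the rRNA ends and in ITS2 and ETS2. Most of these spans had the same p, so it does not set the 5′ ends apart. The last 30 nt of 18S, 5.8S and 25S had log2 changes of -0.03, -0.39 and 0.06, with overlapping libraries.

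Single positions were tested with limma where they averaged 1 RPM or more across the 6 libraries. The scale was log2(RPM + 1), on which the change of a low position comes out too small. At an adjusted p under 0.05 (limma, Benjamini-Hochberg), 478 of the 1291 tested spacer positions were lower at 16 min and 5 were higher. Over all 6636 tested positions, 16.9% were called lower and 14.3% higher. In the gene regions, 644 of 5345 positions were lower and 947 higher. The median log2 change was -1.33 over the spacer positions and 0.18 over the gene regions. The share of tested positions called lower was 46.1% in ETS2, 41.2% in ITS2, 37.1% in ETS1 and 31.1% in ITS1. The same test between the vehicle libraries called 225 of 1414 spacer positions lower and 9 higher, which is part of a background of 8.09% lower and 4.1% higher over the gene, with a median log2 change of -0.66 over the spacers.

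The adjusted calls depended on single libraries. Without replicate 3 at 2 min, 2 spacer positions were called lower and 0 higher by limma, against 604 and 7 at an unadjusted p under 0.05, and 0 gene-region positions were lower and 5 higher (649 and 1053 unadjusted). Without replicate 1 at 2 min the spacer calls were 179 lower, without replicate 1 at 16 min 307, and without replicate 2 at 16 min 245. In the gene regions the same 3 fits called 326, 390 and 332 positions lower and 366, 407 and 331 higher, and without replicate 3 at 16 min 614 were higher. When each library was scaled to its own spacer sum, 167 of 1265 spacer positions were lower (13.2%) and 76 higher (6.01%), so that a set of positions fell or rose relative to the other spacer positions.

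**Figure D2:**
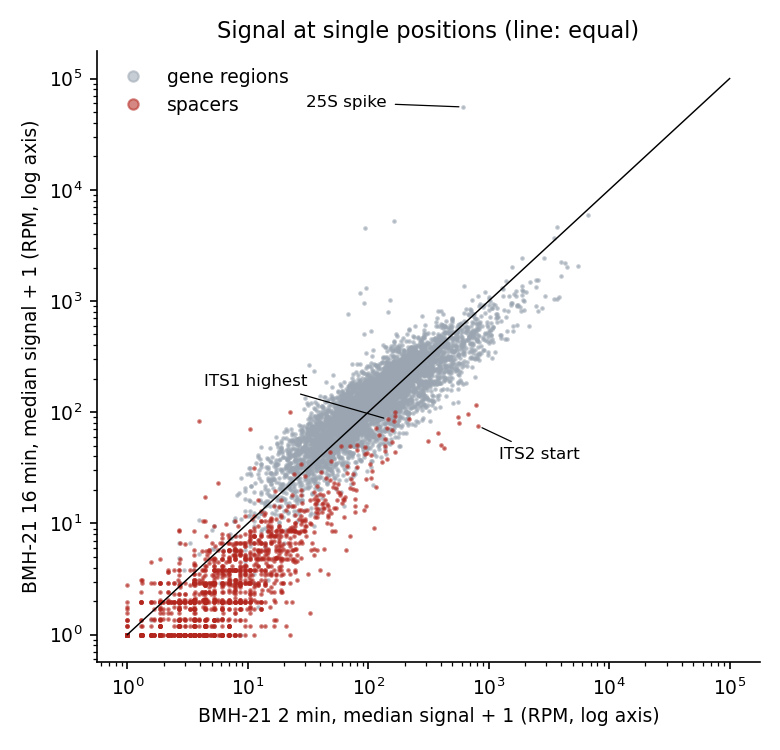
Median signal at each position in the 3 BMH-21 libraries at 16 min against that at 2 min (RPM + 1, both axes logarithmic), with spacer positions in red, gene-region positions in grey and a line of equal values. Most spacer positions lie below the line, and the 25S spike lies far above it.

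At the positions with a median of at least 10 RPM at 2 min, the loss of spacer signal was broad. A position was counted as lost at an adjusted p under 0.05 and a log2 change of -1 or less, and as kept where the 95% interval of the limma log2 change lay within -1 to 1. Of 415 such spacer positions 229 were lost and 6 were kept, while over all 5694 positions at this level 9.17% were lost and 47.2% kept. In ETS2, 25 of 34 were lost and 0 kept, and in ITS2 58 of 86 were lost and 0 kept. The bound was set on the 2-min values, which favours positions that were high at 2 min. Without it, 472 of 1291 tested spacer positions were lost (36.6%), against 11.7% of all tested positions. The share was then 46.1% in ETS2 and 40.7% in ITS2. The kept positions were 106, 429 and 431 in ETS1 and 2502, 2599 and 2708 in ITS1. Position 106 had 72.6, 42.4 and 58.9 RPM at 2 min and 35, 48.5 and 60.7 RPM at 16 min. Its log2 change was -0.27, with an interval of -0.94 to 0.41. Position 2708 had 71.3, 38.4 and 46.9 RPM at 2 min and 31.8, 42.7 and 57.9 RPM at 16 min, and lies 2 nt before the highest position of ITS1, 2710. That position had 155.7, 110.2 and 144.2 RPM at 2 min and 91.9, 79.5 and 85.4 RPM at 16 min. Its log2 change of -0.66 ± 0.19 (SE, adjusted p = 0.042, limma, and 0.14 without replicate 3 at 2 min) is smaller than the median of -1.33 over the spacer positions.

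A steep fall in the spacers lay directly behind 5.8S. The first 10 nt of ITS2 summed to 5647, 3057 and 3785 RPM at 2 min and to 559, 398 and 538 RPM at 16 min. Every 16-min library was below every 2-min library, and the log2 change was -3.03 (p = 0.1 in the exact two-sided permutation test). In vehicle the sums were 3264, 4048 and 4545 RPM at 2 min and 3774, 2891 and 3742 RPM at 16 min, which overlap, with a log2 change of -0.19. The 2-min BMH-21 sums overlapped the vehicle sums. After its first 10 nt, ITS2 held 4062, 2022 and 2813 RPM at 2 min and 1035, 849 and 1337 RPM at 16 min of BMH-21 (log2 change -1.43), against 6585 to 7580 RPM in vehicle at 2 min. The first 10 nt made up 58.6% ± 1.5 of the ITS2 signal at 2 min and 31.9% ± 3.2 at 16 min (SD, n = 3), with 35.2% and 42.1% in vehicle.

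Position by position, the fall spanned 3021 to 3028, the nucleotides 2 to 9 after the last base of 5.8S. Position 3025, the highest of ITS2 at 2 min, had 1383, 664 and 817 RPM at 2 min and 74.2, 74.5 and 66.4 RPM at 16 min. Its log2 change was -3.65 ± 0.29 (SE, adjusted p = 0.0046, limma, and 0.032 without replicate 3 at 2 min), among the 5 most lowered spacer positions of at least 10 RPM. In vehicle it had 906 to 1189 RPM at 2 min and 745 to 1002 RPM at 16 min. Position 3024, the highest of ITS2 at 16 min, had 1245, 647 and 784 RPM at 2 min and 120.5, 87.2 and 115.7 RPM at 16 min, a log2 change of -2.99 (adjusted p = 0.0062, limma, and 0.0501 without replicate 3 at 2 min). In all, 8 of the 9 tested positions among the first 10 nt were lost, against 11.7% of all tested positions. On the scale of the spacer sums 6 of them were called lower, against 13.2% of all spacer positions. The mature side of the same end moved less. The 5.8S position 3015, 4 nt before that end, fell from 5552, 4275 and 4153 RPM to 2193, 2274 and 1978 RPM (log2 change -1.11, adjusted p = 0.012, limma, and 0.057 without replicate 3 at 2 min). Position 3014, next to it, had a log2 change of -0.00063. The libraries do not tell the ends of Pol I-bound transcripts from those of 3′-extended 5.8S precursors.

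**Figure D3:**
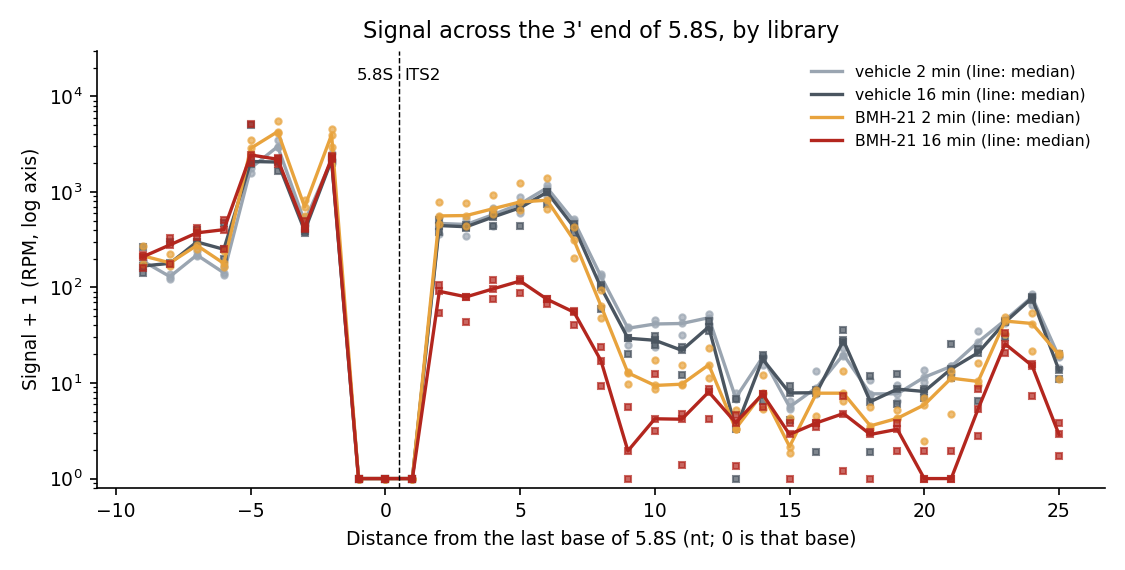
Signal across the 3′ end of 5.8S (RPM + 1, log axis) against the distance from its last base (nt), with 1 point per library and lines at group medians. From 2 to 7 nt into ITS2, the 3 BMH-21 libraries at 16 min (red) lie below the other 9, and the BMH-21 libraries at 2 min overlap the vehicle libraries.

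The change with time was set against that in vehicle in one limma fit of all 12 libraries. At an adjusted p under 0.05, 10 of the 6743 tested positions (0.148%) fell more with BMH-21 than with vehicle, all 10 in spacers, and 9 (0.133%), all in gene regions, rose more. Without adjustment, at p under 0.05, 288 spacer positions were lower and 11 higher, and 334 gene-region positions were lower and 657 higher. Of the 10 spacer positions, 6 were consecutive, 3021 to 3026 in the first nucleotides of ITS2, with log2 differences between -3.42 and -2.35. Of the other 4, ITS2 held 3157, ETS1 held 411, ITS1 held 2569 and ETS2 held 6716. The counts moved when 1 library was left out. The spacer count was 1 without replicate 3 of BMH-21 at 2 min and without replicate 3 of vehicle at 16 min. It was 3 without replicate 3 of vehicle at 2 min, and 4 without replicate 2 of BMH-21 at 16 min, without replicate 1 of vehicle at 16 min, and without replicate 1 or 2 of vehicle at 2 min. It was 24 without replicate 1 of BMH-21 at 16 min and 52 without replicate 2 of BMH-21 at 2 min. With median-ratio scaling 9 spacer positions and 0 gene-region positions were called.

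Position 3157 lies 138 nt after 5.8S, in the part of ITS2 where the C2 site is found. It had 121.7, 76.5 and 94.7 RPM at 2 min of BMH-21 and 12.7, 13.5 and 16.1 RPM at 16 min, a log2 change of -2.69 ± 0.22 (SE, adjusted p = 0.0056, limma). In vehicle it had 143.8 to 160.2 RPM at 2 min and 71.2 to 111.4 RPM at 16 min. ITS1 position 2569 had 88.7, 33.4 and 52.1 RPM at 2 min of BMH-21 and 6.01, 7.59 and 9.49 RPM at 16 min, while vehicle was between 119.0 and 158.4 RPM in all 6 libraries. ETS2 position 6716, before the first terminator site, had 13.7, 12.5 and 12.8 RPM at 2 min and 2.12, 2.66 and 3.79 RPM at 16 min of BMH-21. ETS1 position 411 was at 3.20 to 7.53 RPM at 2 min and at 0.35 RPM or less at 16 min, which is below 3 reads in each of those libraries.

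Along the gene in windows of 100 nt, 28 of 69 windows were lower at 16 min (40.6%) and 13 higher (18.8%) at an adjusted p under 0.05 (limma, Benjamini-Hochberg). Of the 13 windows that lie in spacers only, 10 were lower, with log2 changes down to -1.63. The 3 others were the first and last windows of ETS1 and the last of ETS2. Within 18S, 9 of 18 windows were higher and 1 lower, and within 25S 15 of 33 were lower and 4 higher. The window at 6301 to 6400, which holds the 25S spike, was raised by 1.91, against 1.46 in vehicle. No window differed from vehicle in its change with time at an adjusted p under 0.05 (limma, 0 of 69). Without adjustment, 13 windows were lower and 6 higher at p under 0.05. Without replicate 3 at 2 min, 9 windows were lower and 1 higher. Without replicate 1 at 16 min they were 14 and 3, without replicate 2 at 16 min 10 and 2, without replicate 1 at 2 min 19 and 7, and without replicate 3 at 16 min 7 were higher.

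**Figure D4:**
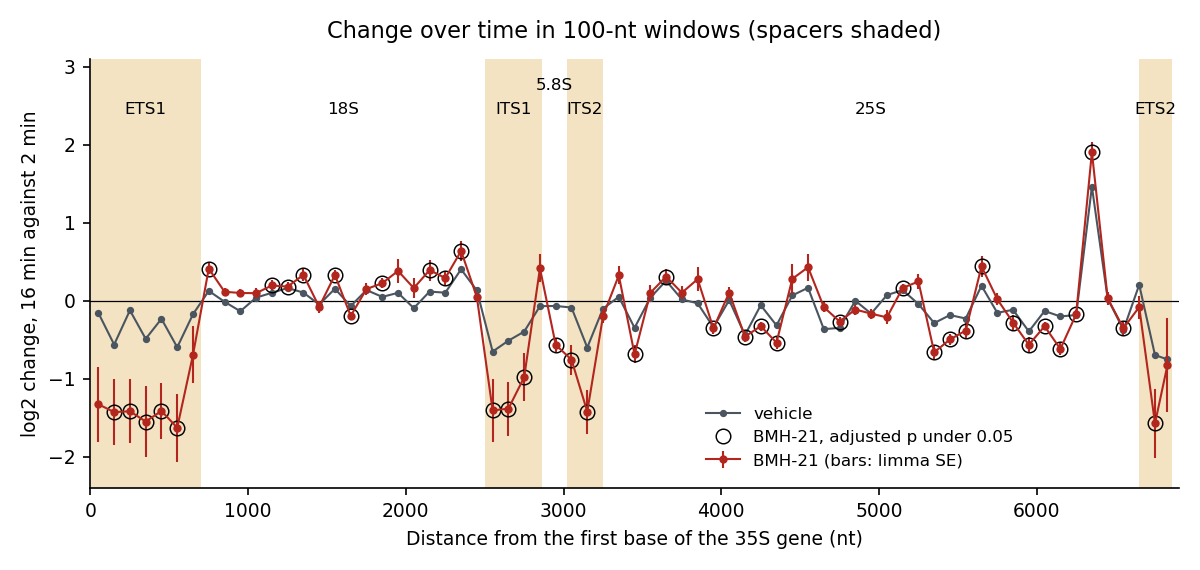
Log2 change from 2 to 16 min in 100-nt windows along the gene, for BMH-21 (red, bars are the limma SE) and vehicle (dark grey), with spacers shaded and windows at an adjusted p under 0.05 circled. The BMH-21 line drops below the vehicle line in the spacers, and both lines peak in the window of the 25S spike.

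Within ETS1 the loss was uneven toward 18S. The last 100 nt of ETS1 (positions 601 to 700) had a log2 change of -0.69 (adjusted p = 0.14, limma), against -1.33 to -1.63 in the 6 windows before it. They held 9.20% of the ETS1 signal at 2 min and 14.6% at 16 min, 5.41 percentage points more, with no overlap between the libraries (exact permutation test, two-sided, p = 0.1). After adjustment over the 7 windows of ETS1 this p was 0.23 (Benjamini-Hochberg). In vehicle they held 10.3% and 11.7%, also with no overlap, a difference of 1.34 percentage points. The lack of overlap was not particular to this window. In BMH-21 it also held at 301 to 400 and 501 to 600, with differences of -1.58 and -1.63 percentage points. In vehicle it held in all 7 windows. The last window contains position 631, one of the 5 raised spacer positions, which had 7.85, 2.91 and 1.71 RPM at 2 min and 83.0, 10.4 and 86.3 RPM at 16 min (adjusted p = 0.030, limma, and 0.097 without replicate 3 at 2 min). Leaving out this position gave a difference of 4.13 percentage points. When libraries were scaled to their spacer sums, the last ETS1 window was higher at 16 min, with a log2 change of 0.92 (adjusted p = 0.012, limma). On that scale 58 of 69 windows were called higher. Among them was the ITS1 window at 2701 to 2800, with a log2 change of 0.63 (adjusted p = 0.023, limma).

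**Figure D5:**
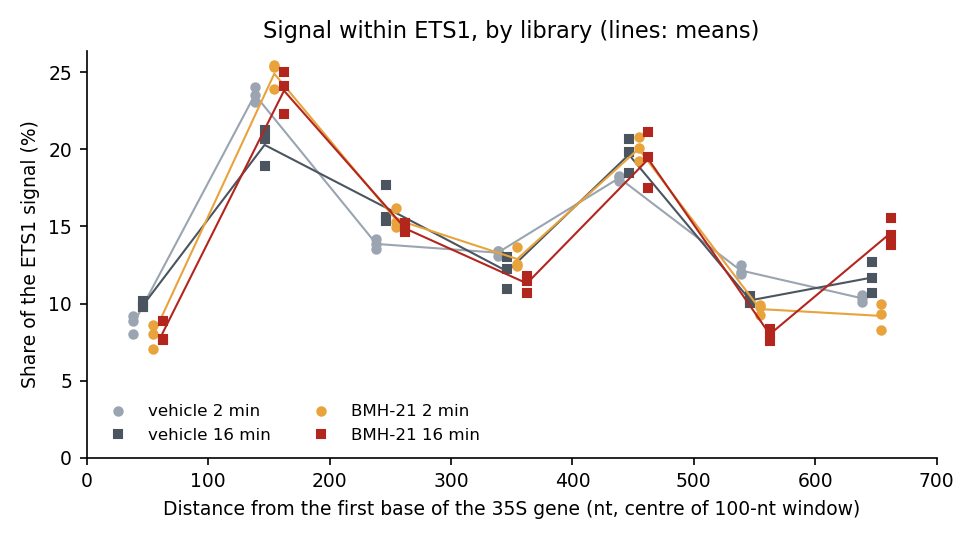
Share of the ETS1 signal in each of its 7 windows of 100 nt (%), with 1 point per library and lines through group means. In the last window, next to 18S, the 3 BMH-21 libraries at 16 min lie above the 3 at 2 min, and the other windows lie closer together.

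Other raised spacer positions were 229 and 672 in ETS1 and 3107 and 3108 in ITS2. Position 3108 had 9.49, 6.40 and 9.39 RPM at 2 min and 31.8, 95.2 and 69.2 RPM at 16 min of BMH-21. Vehicle was at 11.7 to 15.6 RPM at 2 min and at 13.9, 263.0 and 74.5 RPM at 16 min, so replicate 2 at 16 min was highest in both treatments. The most lowered spacer positions outside ITS2 were 309, 319 and 450 in ETS1 and 6683 in ETS2. Position 319 had 43.8, 7.56 and 22.2 RPM at 2 min and 0.35, 1.90 and 0.95 RPM at 16 min. Position 309 had 64.8, 17.2 and 38.4 RPM at 2 min and 6.36, 0 and 2.85 RPM at 16 min. Position 450 had 38.6, 11.9 and 21.3 RPM at 2 min and was listed at 0 in 2 libraries and at 6.64 RPM in replicate 3 at 16 min. At these ETS1 positions replicate 2 was the lowest library at 2 min. Position 6683, in the stretch of 35 positions labelled as Rnt1-cleaved, had 26.5, 8.14 and 12.8 RPM at 2 min and 1.77, 0.19 and 0 RPM at 16 min. That stretch of ETS2, which the endonuclease Rnt1 cuts, had a log2 change of -2.39, and the part of ETS2 after the first terminator site had a log2 change of -0.98 with overlapping libraries. The calls at positions 309, 319, 450 and 6683 were lost without replicate 3 at 2 min (adjusted p = 0.056 to 0.078, limma).

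The highest positions of ETS1 and ETS2 were tested as well. In ETS1, position 232 had 336.0, 118.9 and 215.9 RPM at 2 min and 105.7, 86.3 and 70.2 RPM at 16 min of BMH-21, a log2 change of -1.24 (adjusted p = 0.048, limma, and 0.13 without replicate 3 at 2 min). In vehicle it had 578.9 to 736.9 RPM at 2 min and 843.7 to 1240 RPM at 16 min. The log2 change in vehicle was 0.57 (adjusted p = 0.096, limma). The difference of -1.81 between treatments had an adjusted p of 0.12 (limma). In ETS2, the highest position at 2 min was 6661, shortly after the end of 25S, with 698.9, 209.3 and 427.5 RPM at 2 min and 35.3, 46.7 and 101.5 RPM at 16 min (log2 change -2.82, adjusted p = 0.015, limma, and 0.061 without replicate 3 at 2 min). Position 6650, the highest of ETS2 at 16 min, had 203.8, 152.0 and 164.7 RPM at 2 min and 91.9, 91.2 and 179.3 RPM at 16 min, so that the libraries overlapped.

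In the gene regions, the 5 most lowered positions were 702 and 707 at the start of 18S and 3456, 3903 and 4119 in 25S, with log2 changes of -2.63 to -2.17 (adjusted p = 0.0063 to 0.029, limma). None of these calls held without replicate 3 at 2 min, where the adjusted p was 0.0501 to 0.082. Position 4119 had 719.8, 437.5 and 552.1 RPM at 2 min and 123.0, 124.0 and 108.1 RPM at 16 min of BMH-21, a log2 change of -2.23 against -1.68 in vehicle. Position 702 had 81.5, 29.4 and 62.3 RPM at 2 min and 14.8, 3.41 and 13.3 RPM at 16 min, while vehicle had 115.4 to 268.2 RPM in all 6 libraries. The highest position of 18S, 2498, lies 2 nt before its 3′ end and had overlapping libraries, with 5921 to 6983 RPM at 2 min and 4023 to 6061 RPM at 16 min. The highest of 25S at 2 min, 5046, had 5275 to 6773 RPM at 2 min and 1767 to 2056 RPM at 16 min (log2 change -1.57, adjusted p = 0.0073, limma, and 0.0501 without replicate 3 at 2 min).

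The strongest rise lay in 25S, at the spike 248 nt before the 3′ end of that rRNA. The position had 4604, 515 and 612 RPM at 2 min and 55541, 71857 and 54669 RPM at 16 min of BMH-21, a log2 change of 5.73 ± 0.79 (SE, adjusted p = 0.0095, limma, and 0.053 without replicate 3 at 2 min). Vehicle had 341, 2019 and 7925 RPM at 2 min and 25017, 53828 and 32475 RPM at 16 min. The groups did not overlap in either treatment, and the log2 change was 4.32 in vehicle. The difference of 1.41 between treatments had an adjusted p of 0.63 (limma). Positions 6383, 5094, 6397 and 4868 of 25S were raised as well, with log2 changes of 3.61 to 5.53 in BMH-21 and 2.54 to 4.49 in vehicle.

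The sequences after 2 of these positions resemble the linker. The linker ligated to the RNA ends starts, in the labels, with 2 fixed and 8 random bases before its fixed part, which therefore begins 11 nt after the RNA end. In the gene, 10 positions are followed at that same spacing by at least the first 4 bases of this fixed part. The 25S spike matches 6 bases and is the only one that does, and position 5094 matches 5. The 10 positions together held 0.565% of the signal at 2 min and 6.85% at 16 min of BMH-21, with log2 changes of 3.70 in BMH-21 and 2.92 in vehicle. The 25S spike alone held 0.191% and 6.07%, so most of this summed rise is that of the spike. Of the 10, 2 were called higher and 2 lower (5922 and 5011 in 25S), close to the 14.3% and 16.9% of all tested positions. The ETS1 member, position 377, was at 15.4 to 39.6 RPM at 2 min and 16.9 to 133.7 RPM at 16 min of BMH-21. These positions were looked for after the values of the spike were seen, and the part of the linker match in the rise was not tested. With the 25S spike left out of the scaling, the log2 change of the spacer share was -1.53, and with all 10 left out it was also -1.53.

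The base at the read end, the last nucleotide of the transcript, differed between the times over the spacers as a whole. Read ends at A made up 29.8% ± 1.0 of the spacer signal at 2 min and 33.6% ± 2.1 at 16 min (SD, n = 3), and those at G 19.9% and 23.5%. Read ends at C made up 20.4% at 2 min and 17.0% at 16 min, and those at U 29.9% and 25.9%. Each of the 4 differences had p = 0.1 in the exact permutation test, also adjusted over the 4 bases, with no overlap. In vehicle the differences lay between -0.79 and 0.69 percentage points. With the first 10 nt of ITS2 left out, which read CCTTCTCAAA, the differences were -0.24 for A, 0.85 for G, -0.62 for C and 0.014 percentage points for U (p = 0.2 to 1, exact). Away from the mature rRNA ends, by more than 30 nt, they were -1.52 for A, 0.10 for G, 0.24 for C and 1.18 percentage points for U (p = 0.5 to 0.9, exact).

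The concentration of the signal on single spacer positions differed as well. The 10 highest spacer positions of a library held 24.6% ± 1.9 of its spacer signal at 2 min and 13.4% ± 0.9 at 16 min (SD, n = 3), with 15.2% and 17.6% in vehicle (exact permutation test, p = 0.1). With the first 10 nt of ITS2 left out the difference was -0.47 percentage points (exact, p = 0.5). With positions near mature ends left out, the values were 12.5% and 14.2%, and the libraries overlapped. For the 38 highest positions the difference was -6.16 percentage points (exact permutation test, p = 0.1). Away from mature ends they held 28.3% and 33.3%, which is more at 16 min with no overlap (exact permutation test, p = 0.1), and vehicle moved the same way, with 27.0% and 34.4%. At a common depth of 9783 spacer reads, 1138 to 1173 spacer positions had a read at 2 min and 846 to 1154 at 16 min, where replicate 2 was lowest. Replicate 2 at 16 min was also lowest in vehicle, with 1005. Spearman's coefficient across the 1504 spacer positions averaged 0.908 between 2-min libraries, 0.598 between 16-min libraries and 0.680 between times. Across the 312 spacer positions with a mean of at least 10 RPM it averaged 0.870, 0.656 and 0.564, so the order of the last 2 was reversed. The 16-min libraries hold fewer spacer reads, and positions are not independent replicates.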

How the data were processed

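NET-seq reads were processed by the authors with the STAR aligner (version 2.7.1a per the labels) on assembly R64-1-1. Per the file headers, the deposited tables give RPM at each position of the 35S gene, 1 table per treatment time, with 3 columns per treatment. The authors scaled each library to its own read ends on the gene. The columns named mut were taken as BMH-21-treated. The deposited means, medians, ratios and p-values were not used, and 0 per-library columns were left out. Merging of reads by the molecular identifier in the linker is not given in the sources used here, so intervals cover counting error only. All 6858 bases in the files equal those of the RefSeq assembly.

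When RPM values were divided by the smallest one in their library, 99.9% to 100% of positions came out as whole reads (tolerance 0.01). R 4.3.3 with limma 3.58.1 was used to test positions and windows as log2(RPM + 1), and p-values were adjusted by Benjamini-Hochberg and called under 0.05. edgeR 4.0.16 tested the recovered reads as an alternative. Shares were compared by exact permutation tests in Python 3.11.15 (numpy 2.4.6, pandas 2.3.3), and plots were drawn with matplotlib 3.10.9. The labels do not say whether replicates were separate cultures, while the study's text calls them biological, and p-values measure the spread between libraries. The limma and edgeR tests of positions were checked on simulated reads with the same spread at all positions. That setting does not copy the differences between these libraries. The permutation tests, the windows and the difference from vehicle were not checked in this way.

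By rule, the text names the highest position of each region at each time, the 5 most lowered and 5 most raised in the spacers and gene regions (adjusted p under 0.05, median of at least 10 RPM), kept and lost positions, and the 25S spike. The other positions were named after their values were seen. The members, lists and tests were chosen with earlier results of these data known.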

Additional observations from a re-analysis of the deposited data

Results flagged for a closer look

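The change with time differed between BMH-21 and vehicle at 10 spacer positions, all lower with BMH-21, and at 9 gene-region positions, all higher (limma interaction term over 12 libraries, Benjamini-Hochberg adjusted p under 0.05). In ITS2 the log2 differences were -2.83 at position 3021, -3.13 at 3022, -2.79 at 3023, -2.68 at 3024, -3.42 at 3025, -2.35 at 3026 and -1.91 at 3157. They were -2.47 at position 411 in ETS1, -2.79 at 2569 in ITS1 and -2.44 at 6716 in ETS2. At each of these 10 positions the 3 BMH-21 libraries at 16 min lay below the other 9 libraries. The positions were chosen by a fit of the same 12 libraries, so this is no separate support. Among the BMH-21 libraries alone, all 3 at 16 min lay below all 3 at 2 min at 625 of 1291 tested spacer positions. Over all 6636 tested positions this held at 1717, and at 1767 all 3 at 16 min lay above all 3 at 2 min. Groups of 3 libraries are too small for a search for single outlying libraries.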

How the results depend on the processing

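The lower share of the spacers (log2 change -1.61) kept its direction under every alternative run, between -1.61 and -1.37 and, leaving out 1 library, between -1.92 (without replicate 2 at 2 min) and -1.29 (without replicate 1 at 2 min). The region shares kept theirs too, as did the first 10 nt of ITS2 and the last 100 nt of ETS1. With labels permuted within same-numbered pairs, a replicate block, the spacer share had p = 0.25, the smallest possible (exact). The numbers share no batch in the labels. Deviations from the group means correlated at -0.01, 0.23 and -0.03 between same-numbered libraries. Between libraries of unlike number these correlations ran from -0.23 to 0.22. With the replicate block in limma, 8 windows were higher instead of 13, and the counts of positions stayed within 1.5 times.

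Spacer positions called lower, 478 of 1291 as reported, were 310 with a pseudocount of 0.1 and 64 with an unmoderated model. With a mean of at least 10 RPM they were 228, out of only 312 tested. Scaled to the spacers they were 167 of 1265. Spacer positions called higher, 5 as reported, were 2 with the unmoderated model and 76 scaled to the spacers. In the gene regions the unmoderated model called 389 lower and 359 higher, and the spacer scale 5 and 4349. Windows called lower, 28 of 69 as reported, were 0 on the spacer scale, 50 of 138 with 50 nt and 14 of 35 with 200 nt. Windows called higher, 13 of 69 as reported, were 58 on the spacer scale, 7 with the median ratio and 8 of 35 with 200 nt. Leaving out 1 library gave 2 to 554 lower and 0 to 7 higher spacer positions, 0 to 566 lower and 5 to 934 higher gene-region positions, and 9 to 29 lower and 1 to 18 higher windows. Fits without 1 library of a group assume that its other libraries vary alike.

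For the difference from vehicle, the 9 higher gene-region positions became 14 with a pseudocount of 5, 15 with a mean of at least 10 RPM, 14 without the 25S spike and 0 with the median ratio. Leaving out 1 library gave 1 to 52 lower and 0 to 1 higher spacer positions, and 0 to 4 lower and 0 to 22 higher gene-region positions.

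The read-end base differences reversed for A (-1.52), C (0.24) and U (1.18 percentage points) away from mature ends, and for A (-0.24) and U (0.014) without the first 10 nt of ITS2. The 10-highest share reversed to 1.67 percentage points away from mature ends. On the spacer scale the log2 changes of named positions reversed at 232 (0.36), 2498 (1.30), 2710 (0.94), 3014 (1.61), 3015 (0.51), 3029 (0.34), 5046 (0.040) and 6650 (1.02). Position 3014, at -0.00063, was at 0.073 and 0.11 with edgeR (TMM and library totals), at 0.087 without the 25S spike, and leaving out 1 library between -0.40 and 0.27. The cause of these changes was not tested, except that the spacer scale sets the sum over the spacers equal by construction.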
